A study of Mus musculus with 18 samples.

Results

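The Hippo pathway is a kinase relay that restrains growth. The kinases MST1 and MST2 (the second encoded by Stk3) activate LATS1 and LATS2, which phosphorylate the coactivators YAP (Yap1) and TAZ (Wwtr1) and so keep them out of the nucleus. When the relay is off, YAP and TAZ enter the nucleus and bind the TEAD factors (Tead1 to Tead4), which recognise the bases CATTCC. The pathway answers to mechanical load and cell shape, and YAP is known in the retina for its part in Müller glia. The data described here are the ATAC-seq peaks at 10 of these genes: the coactivators Yap1 and Wwtr1, the factors Tead1, Tead2, Tead3 and Tead4, the kinases Stk3, Lats1 and Lats2, and Amotl2, a junction protein that binds YAP and promotes its inhibition. A gene's window ran from 10 kb upstream of its annotated start to its end (mm10, GENCODE M21). The 10 genes were members of a set of 21951 protein-coding genes, and their windows held 750 of the 911837 peaks.

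ATAC-seq (insertion of sequencing adapters into open chromatin by a transposase) had been run on whole retina of wild-type mice in 18 libraries, 3 in each of 6 groups. Mice were aged 3 months (3mo) or 18 months (18mo). Each age had retinas of untreated mice, retinas of eyes in which intraocular pressure (IOP) had been raised to 30 mmHg during 1 hour, taken on day 2, and retinas of the opposite, unpressurised eyes (contralateral controls). Whole retina mixes many cell types, so that a change in the share of a cell type and a change in the chromatin of each cell cannot be told apart. A dasatinib treatment described in the text common to all labels is assigned to no library.

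The lists held 36011 to 66160 peaks. The lists with the most peaks were 3mo contralateral control replicate 2 and 3mo untreated replicate 6 (66114 peaks). The number of reads behind a region is not in the lists, so its precision is not known. The shortest listed peak was 79 to 89 bp in the 6 untreated libraries and 114 to 157 bp in the other 12. The median peak was 161 to 192 bp wide in the untreated and 264 to 395 bp in the other libraries. Kind of control (untreated or contralateral) and peak shape therefore cannot be told apart. The other 12 lists fell into 2 classes, with a shortest peak of 114 to 122 bp (median width 264 to 283 bp) or of 148 to 157 bp (359 to 395 bp). Of the contralateral lists, replicate 2 at 3mo and replicates 1 and 3 at 18mo were in the first class. Of 15 retinal marker genes, 7 had a promoter called in all 18 libraries and 8 in some, with Crx among those called in all 18. No promoter was called for any of 5 microglial markers or of 7 genes of other tissues, although their windows held 5 and 0 regions called in all 18 libraries, 4 of them at Cx3cr1. For retinal pigment epithelium 5 of 7 markers had none, while Dct, a pigment gene, was called in all 18 libraries and Tyrp1 in 6. For vascular endothelium 4 of 5 had none and Flt1 was called in 13 libraries.

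The 750 peaks merged into 100 regions, of which 37 were called in a single library and 63 in at least 2. Among these 63 regions 18 (28.6%) were called in all 18 libraries, against 33.6% of the 73567 such regions of the genome. Introns held 49 of the 63 (77.8%, against 47.5% genome-wide). Signal strength was described by a percentile: the rank of a region's −log10 q-value within its own list, with 100 the strongest. The 18 regions called throughout had mean percentiles of 32.5 to 97.8 (median 71.7), and the 45 others a median of 20.8.

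Yap1, Tead4, Lats2 and Amotl2 carry CATTCC, on 1 strand or the other, within the 200 bp around the summit of their promoter region. The sequences are shown because TEAD factors are themselves members of the set. All are from GRCm38, 5′ to 3′ on the strand of the gene, with CATTCC or its reverse complement GGAATG in capitals.
Yap1 promoter, chr9:8004556-8004755 (minus strand): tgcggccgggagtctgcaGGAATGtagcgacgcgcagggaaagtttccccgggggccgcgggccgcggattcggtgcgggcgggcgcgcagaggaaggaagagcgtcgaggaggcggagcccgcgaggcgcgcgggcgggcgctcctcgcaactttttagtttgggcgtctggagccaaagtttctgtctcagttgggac
Tead4 promoter, chr6:128300478-128300677 (minus strand): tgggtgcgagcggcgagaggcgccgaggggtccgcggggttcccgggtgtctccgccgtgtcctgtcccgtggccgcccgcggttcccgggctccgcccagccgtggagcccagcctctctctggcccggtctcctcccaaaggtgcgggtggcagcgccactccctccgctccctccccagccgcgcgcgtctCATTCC
Lats2 promoter, chr14:57746054-57746253 (minus strand): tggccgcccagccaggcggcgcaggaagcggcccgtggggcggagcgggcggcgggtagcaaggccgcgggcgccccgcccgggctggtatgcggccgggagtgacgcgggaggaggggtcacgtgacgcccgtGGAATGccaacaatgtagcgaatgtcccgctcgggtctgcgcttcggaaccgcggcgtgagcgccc
Amotl2 promoter, chr9:102717606-102717805 (plus strand): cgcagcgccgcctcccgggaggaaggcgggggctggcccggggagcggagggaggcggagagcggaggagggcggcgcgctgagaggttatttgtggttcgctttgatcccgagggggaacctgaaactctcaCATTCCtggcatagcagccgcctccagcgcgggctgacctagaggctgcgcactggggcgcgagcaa
Each of these sequences holds 1 copy. In all, 5 of the 10 promoter regions of the set (50.0%) held a match, against 6.08% of the 13570 promoter regions of protein-coding genes with the same window length. Away from the promoters there were 2 matches among the regions called in at least 2 libraries, in an intron of Tead1 (4 libraries) and an intron of Stk3 (2 libraries). A match is a stretch of letters and not evidence of binding.

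The next sequences, all in introns of Stk3, are shown because their calls differed most with age. Capitals mark TAATCC or its reverse complement GGATTA, the core recognised by the photoreceptor factors Crx and Otx2.
Stk3 13.4 kb, chr15:35165460-35165659 (minus strand): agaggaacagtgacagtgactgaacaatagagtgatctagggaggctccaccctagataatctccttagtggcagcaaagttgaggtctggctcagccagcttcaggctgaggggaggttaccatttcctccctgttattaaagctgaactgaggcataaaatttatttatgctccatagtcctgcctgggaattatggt
Stk3 116 kb, chr15:35063312-35063511 (minus strand): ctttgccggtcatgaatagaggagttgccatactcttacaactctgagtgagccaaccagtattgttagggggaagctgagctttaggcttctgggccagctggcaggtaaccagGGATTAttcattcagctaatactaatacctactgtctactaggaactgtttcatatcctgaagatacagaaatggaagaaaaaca
Stk3 218 kb, chr15:34960702-34960901 (minus strand): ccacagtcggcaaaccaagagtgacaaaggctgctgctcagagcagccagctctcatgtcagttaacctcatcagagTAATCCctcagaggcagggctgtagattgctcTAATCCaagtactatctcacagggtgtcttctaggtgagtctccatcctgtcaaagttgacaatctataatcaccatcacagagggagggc
The Stk3 218 kb region holds 2 copies, the Stk3 116 kb region 1 and the Stk3 13.4 kb region 0. This motif was present in 8 of the 63 member regions (12.7%), against 15.4% of all regions called in at least 2 libraries.

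**Figure D1:**
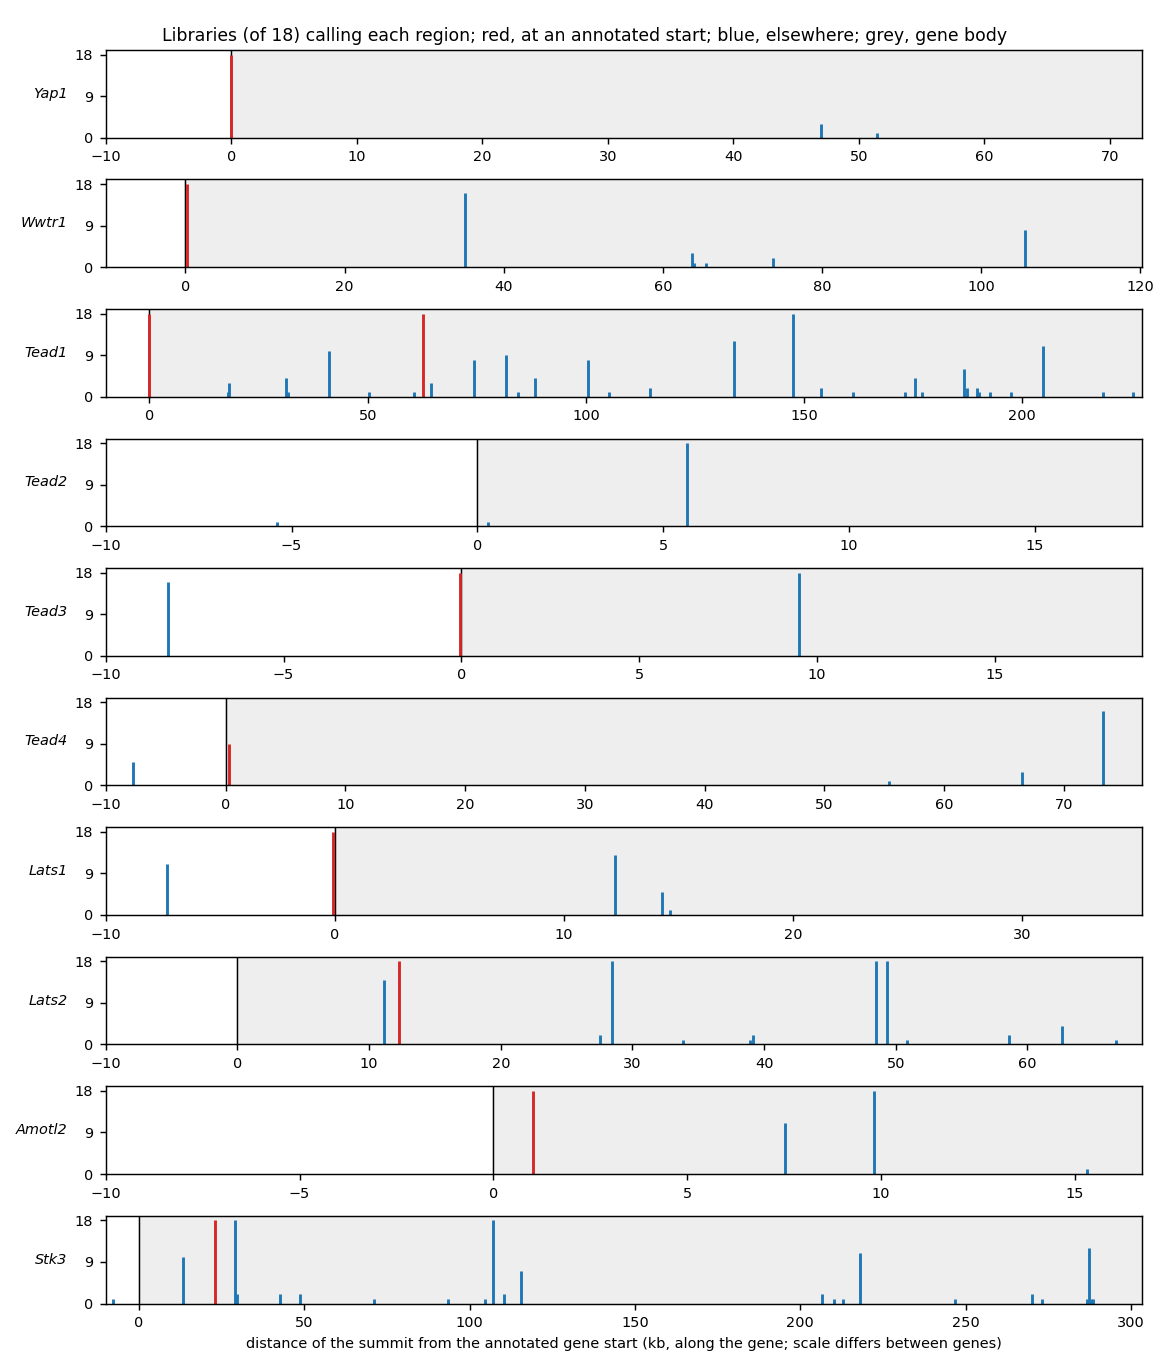
Position of each of the 100 regions along its gene (x axis, kb from the annotated gene start, 10 kb upstream included; scale differs between genes) against the number of libraries calling it (y axis, of 18). Red bars lie at an annotated start and reach 18 for every gene except Tead4, at 9, and Tead2, which has none.

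The coactivators were open chiefly at their promoters. Yap1 (chr9:7931999-8004596, minus strand) had 1 region called in all 18 libraries, at its start (chr9:8003358-8004976, summit 59 bp upstream), with a mean percentile of 44.3 ± 10.9 (SD, n = 18). That region also covers the start of Gm45494, so the signal cannot be assigned to 1 of these genes. The only other Yap1 region called in more than 1 library lay in an intron 47 kb downstream and was found in 3 libraries. Across its 82.6 kb window Yap1 had 1 to 5 peaks a library. At Wwtr1 (chr3:57455649-57575910, minus strand) the promoter (chr3:57574802-57576623, spanning the start) ranked higher, at 73.1 ± 4.31 (SD, n = 18). An intron region 35.2 kb from the Wwtr1 start (chr3:57540508-57540938) was called in 16 libraries, missing only in 3mo contralateral replicates 1 and 3. Their lists were the shortest at 3mo (39202 and 41499 peaks). The shortest of all, 18mo IOP replicate 3 (36011 peaks), held the region. The part of list length in the missing calls was not tested. A further Wwtr1 intron region, 105 kb from the start, was called in 8 libraries, including all 3 of the 3mo IOP group and 1 of the 3mo contralateral controls.

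The TEAD genes differed among themselves. Tead1 (chr7:112679318-112906807, plus strand) had the most regions, 33 in a window of 237 kb, of which 19 were called in at least 2 libraries and 3 in all 18. These 3 were the promoter (chr7:112678647-112680134, percentile 85.8 ± 4.87, SD, n = 18), a region at an internal annotated start 62.7 kb downstream (chr7:112741719-112742261, percentile 67.4 ± 9.62) and a 1745 bp region in an intron at 147 kb (chr7:112825212-112826956, percentile 78.6 ± 5.25). The Tead1 promoter region also covers the start of 2310014F06Rik, so the signal cannot be assigned to 1 of these genes.

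Tead2 (chr7:45215753-45233644, plus strand) showed the reverse arrangement. No peak in any list covered an annotated Tead2 start or had its summit within 1 kb upstream to 100 bp downstream of it, as was the case for 37.0% of the 21951 protein-coding genes. A region in an intron 5.64 kb inside the gene (chr7:45220986-45221859) was called in every library, with a −log10 q-value of 19.45 to 44.78 and a percentile of 76.0 ± 4.66 (SD, n = 18). Its 200 bp summit sequence, shown because it is the only recurrent open site of the gene, holds none of the 4 motifs searched and so has no capitals.
Tead2 intron, chr7:45221293-45221492 (plus strand): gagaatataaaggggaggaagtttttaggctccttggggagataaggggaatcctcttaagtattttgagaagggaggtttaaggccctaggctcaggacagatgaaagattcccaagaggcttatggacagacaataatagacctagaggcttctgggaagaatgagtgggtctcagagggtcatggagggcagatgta
The Tead2 window held exactly 1 peak in 17 libraries and 3 in 18mo IOP replicate 1.

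Tead3 was called in all 18 libraries at its promoter (chr17:28349901-28352334, percentile 74.7 ± 2.84, SD, n = 18) and in an intron at 9.49 kb (chr17:28340973-28341669, percentile 62.6 ± 11.9). The Tead3 promoter region overlaps its neighbour Tulp1, a photoreceptor gene. The other recurrent Tead3 region, at −8.24 kb and called in 16 libraries, covers an annotated start of Tulp1.

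Tead4 was the only member with no region called throughout. Its promoter (chr6:128300149-128300918) was called in 9 libraries at a mean percentile of 12.6 ± 7.59 (SD, n = 9). By group the Tead4 promoter was called in 1 of 3 untreated, 2 of 3 contralateral and 3 of 3 IOP libraries at 3mo, and in 0 of 3, 2 of 3 and 1 of 3 at 18mo. The −log10 q-value where it was called was 2.53 to 5.08, so that all of these calls were near the low end of the lists. The most recurrent Tead4 region lay in an exon at 73.3 kb (chr6:128227412-128227993, 16 libraries, percentile 33.5 ± 18.0, SD, n = 16).

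In the inhibitory arm every gene had a promoter called in all 18 libraries. Stk3 ranked first of all 63 regions at the annotated start 23.1 kb inside its longest transcript (chr15:35155161-35156205), with a percentile of 97.8 ± 1.12 and −log10 q-values of 72.93 to 115.43 (n = 18). The promoters of Amotl2 (chr9:102717166-102719210, 86.3 ± 2.77), Lats2 (chr14:57745363-57746679, 82.3 ± 2.90) and Lats1 (chr10:7680648-7681948, 81.6 ± 3.64) were also called throughout. The median over all promoter regions called in 18 libraries was 87.2. The Lats2 signal lies at an internal start 12.2 kb from the outermost annotated one, and that region also covers the start of Gm49361. Lats2 had 4 regions called in all 18 libraries, the most of any member, with intron regions at 28.4, 48.5 and 49.4 kb. These intron regions also overlap Gm49361, and the Lats1 promoter region overlaps its neighbour Pcmt1. Amotl2 had a second constant region, in an intron at 9.81 kb (percentile 70.2 ± 5.93, SD, n = 18).

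**Figure D2:**
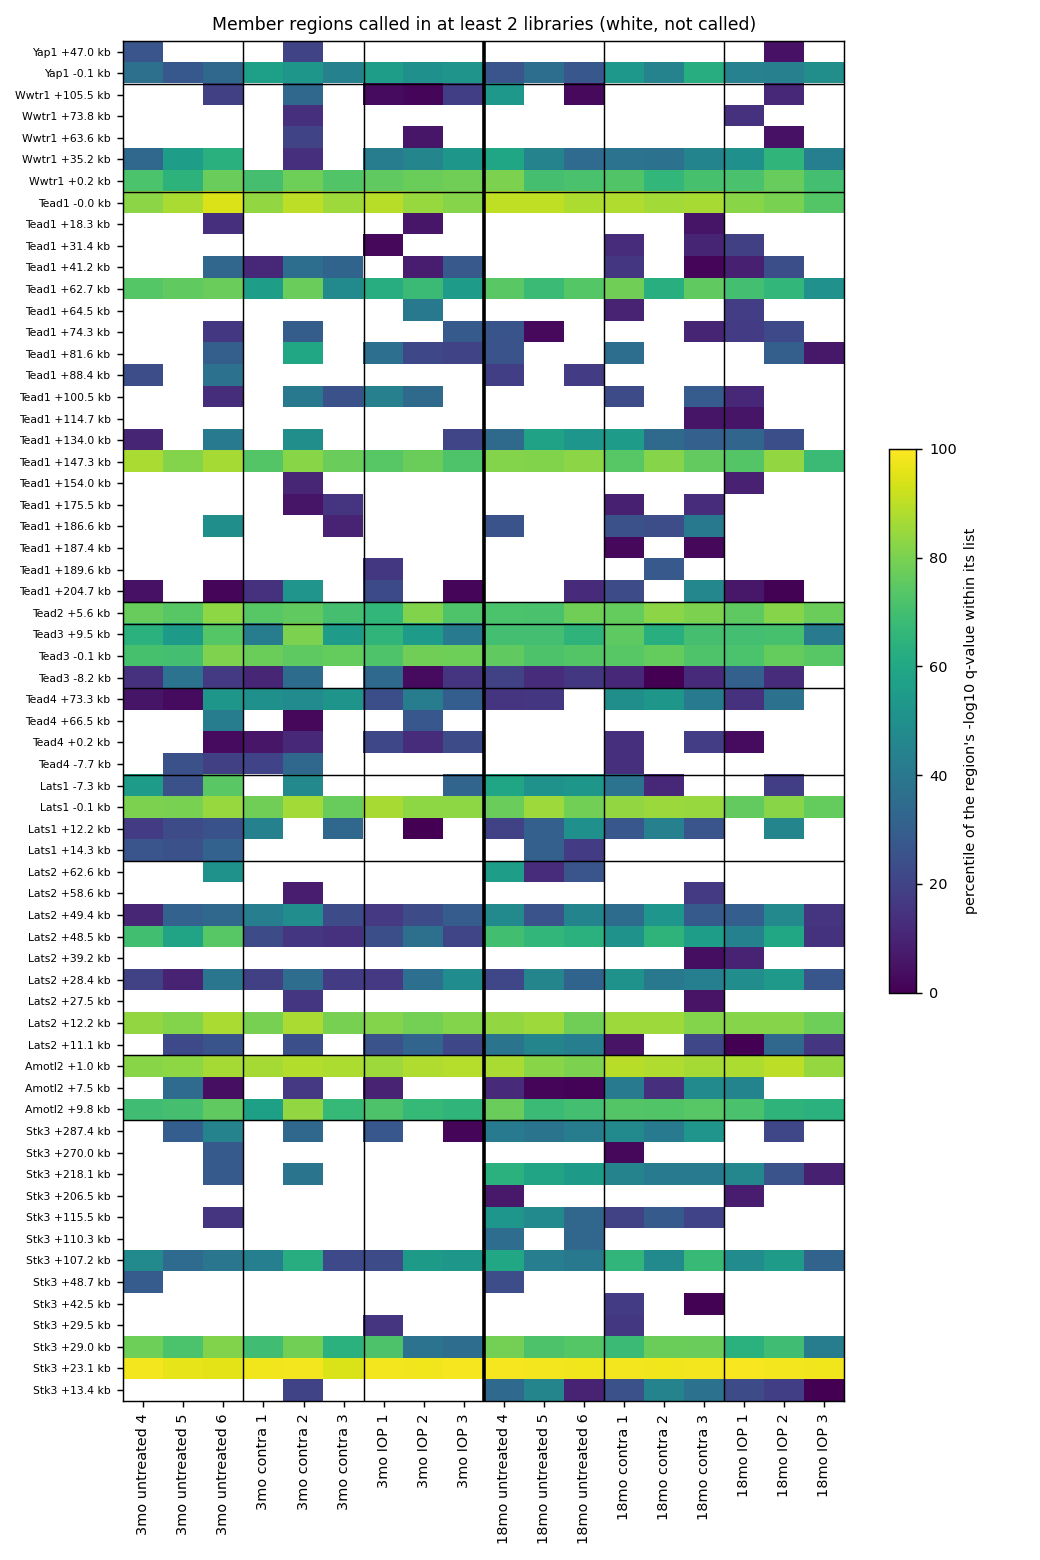
The 63 member regions called in at least 2 libraries (rows, gene and distance of the summit from the gene start) in the 18 libraries (columns, by group and replicate). Colour is the percentile of the region's −log10 q-value within its list and white means not called. The 18 regions called throughout stand out as unbroken rows, and Stk3 rows at 13.4, 116 and 218 kb are filled mainly at 18mo.

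The question of age was addressed with 6 control retinas of 18mo (3 untreated, 3 contralateral) against 6 of 3mo. Stk3 (chr15:34875496-35178921, minus strand), encoding the kinase MST2 at the head of the relay, had more peaks at 18mo. Its window held 4, 5 and 7 peaks in 3mo untreated, 3, 8 and 3 in 3mo contralateral, 11, 7 and 9 in 18mo untreated and 12, 9 and 11 in 18mo contralateral libraries. The ranges overlapped only through the 2 lists with the most peaks, which held 7 and 8. The mean was 9.83 ± 1.83 at 18mo and 5.00 ± 2.10 at 3mo (SD, n = 6 each), a difference of 4.83 peaks (p = 0.00649, two-sided exact permutation test; adjusted p = 1.0 over 16722 genes, Benjamini-Hochberg). At an unadjusted p under 0.05, 1.58% of those genes had more peaks at 18mo, and none passed the adjustment. Within the untreated retinas the Stk3 difference was 3.67 peaks (p = 0.2, exact permutation test) and within the contralateral controls 6.00 (p = 0.1), which is the smallest p that 3 against 3 allows. At each age the higher contralateral counts (8 at 3mo, 12 and 11 at 18mo) came from the lists with the smaller shortest peak. In the IOP libraries, which the comparison did not use, the Stk3 window held 5, 3 and 4 peaks at 3mo and 8, 6 and 5 at 18mo, a difference of 2.33 (p = 0.2, exact permutation test).

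The other members gave no such difference in the same test. Lats2 had 5.83 ± 2.14 peaks at 3mo and 7.67 ± 2.16 at 18mo (SD, n = 6 each; p = 0.188, exact permutation test), with 9 in each of the 18mo untreated libraries. Tead4 had 3.00 ± 2.10 at 3mo and 1.5 ± 1.05 at 18mo (p = 0.219, exact permutation test, n = 6 each). For the remaining 7 genes the difference lay between −0.333 and 1.00 peaks. The median difference was 0.5 peaks over the 10 members and 0 over all genes tested. These differences were not scaled to the number of peaks that a window held, so the 2 medians are not on an equal footing.

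**Figure D3:**
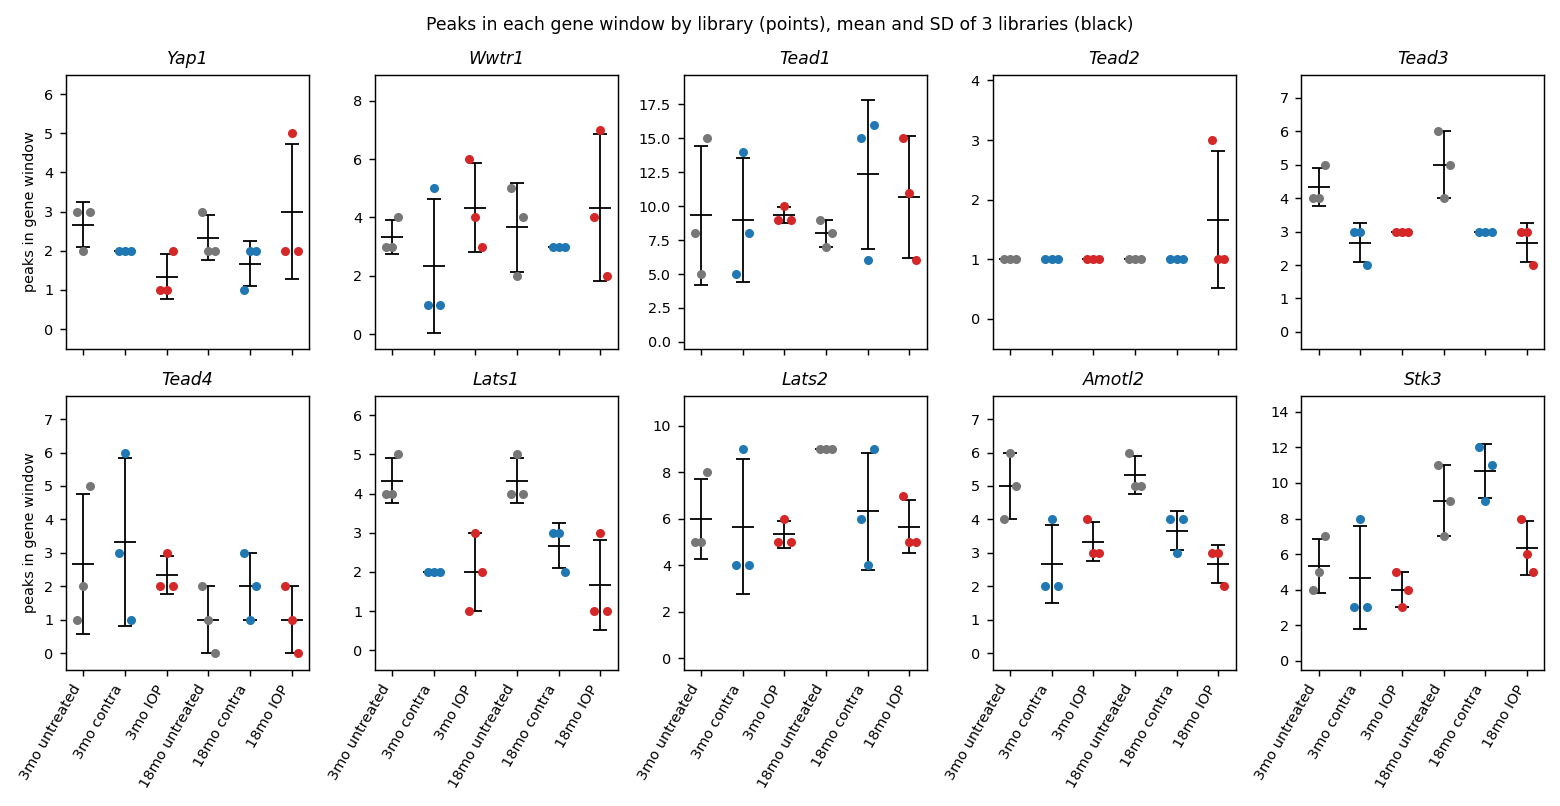
Peaks in each gene window (y axis) by group (x axis; contra, contralateral control). Points are libraries, and black marks the mean and SD of 3 libraries. Stk3 counts run from 7 to 12 in the 18mo controls and from 3 to 8 in the 3mo controls.

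At the level of single regions, 10 of the 63 had a number of calls, neither too few nor too many, that allowed a p under 0.05 for age, and 2 of these, both in Stk3 introns, were called more often at 18mo at an unadjusted p under 0.05. By that rule 3.19% of the 9868 testable regions of the genome had more calls at 18mo, and 0.385% had fewer. None passed the adjustment (smallest adjusted p = 0.345 genome-wide, Fisher's exact test with Benjamini-Hochberg).

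The Stk3 116 kb region (chr15:35063309-35063503) was called in 6 of 6 controls at 18mo and 1 of 6 at 3mo (p = 0.0152, two-sided Fisher's exact test; adjusted p = 0.424). Its −log10 q-values at 18mo were 11.66, 11.46 and 7.59 in untreated and 5.05, 5.80 and 5.23 in contralateral libraries, and the single 3mo call, in untreated replicate 6, had 4.21. No 3mo value reached the lowest 18mo value. None of the 6 IOP libraries of either age called it.

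The Stk3 13.4 kb region (chr15:35164794-35165806) had the same split, 6 of 6 against 1 of 6 (p = 0.0152, two-sided Fisher's exact test; adjusted p = 0.424). At 18mo the −log10 q-values were 6.62, 10.77 and 4.06 in untreated and 5.81, 8.82 and 8.15 in contralateral libraries, and the 3mo call was in contralateral replicate 2, at 4.78. That value lay above the lowest 18mo one, so the strengths overlapped. In the IOP libraries it was called in 3 of 3 at 18mo (5.32, 4.56 and 1.31) and 0 of 3 at 3mo. The region is 1013 bp long, mostly through 1 peak of 973 bp in 18mo contralateral replicate 2. In the other libraries that called it the widest peak was 107 to 297 bp. All 10 libraries that called it had a peak within the 200 bp printed above.

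The Stk3 218 kb region (chr15:34960613-34960994) was called in 6 of 6 controls at 18mo and 2 of 6 at 3mo (p = 0.0606, two-sided Fisher's exact test, the smallest that this number of calls allows). It was also called in 3 of 3 IOP libraries at 18mo and 0 of 3 at 3mo, so that 9 of 9 libraries of 18mo and 2 of 9 of 3mo held it. It was the strongest of these regions, with −log10 q-values of 17.74, 16.71 and 14.63 in 18mo untreated, 9.64, 8.04 and 9.19 in 18mo contralateral and 10.08, 5.44 and 3.62 in 18mo IOP libraries, against 5.59 and 7.56 in the 2 calls at 3mo. Both 3mo calls again came from the lists with the most peaks. The Stk3 promoter itself was called in all 18 libraries.

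When every list was reduced to its 36011 strongest peaks, the 18mo mean at Stk3 was 3.33 peaks higher (exact permutation p = 0.00216), while the 116 kb region (p = 0.182, Fisher's exact test) and the 13.4 kb region (p = 0.0606, Fisher's exact test) no longer passed. Without the 2 longest lists, which held the highest 3mo counts at Stk3 and every 3mo call of these regions, the window difference was 6.08 peaks. One of the 20 regions in the windows of the 5 endothelial markers (in that of Pecam1) also passed for age, in the same direction. No region passed in the microglial (12 regions), pigment epithelium (8) or retinal marker (76) windows. Lists this small cannot be told apart from each other or from the genome by such counts. The part of cell composition in the Stk3 result was not tested.

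**Figure D4:**
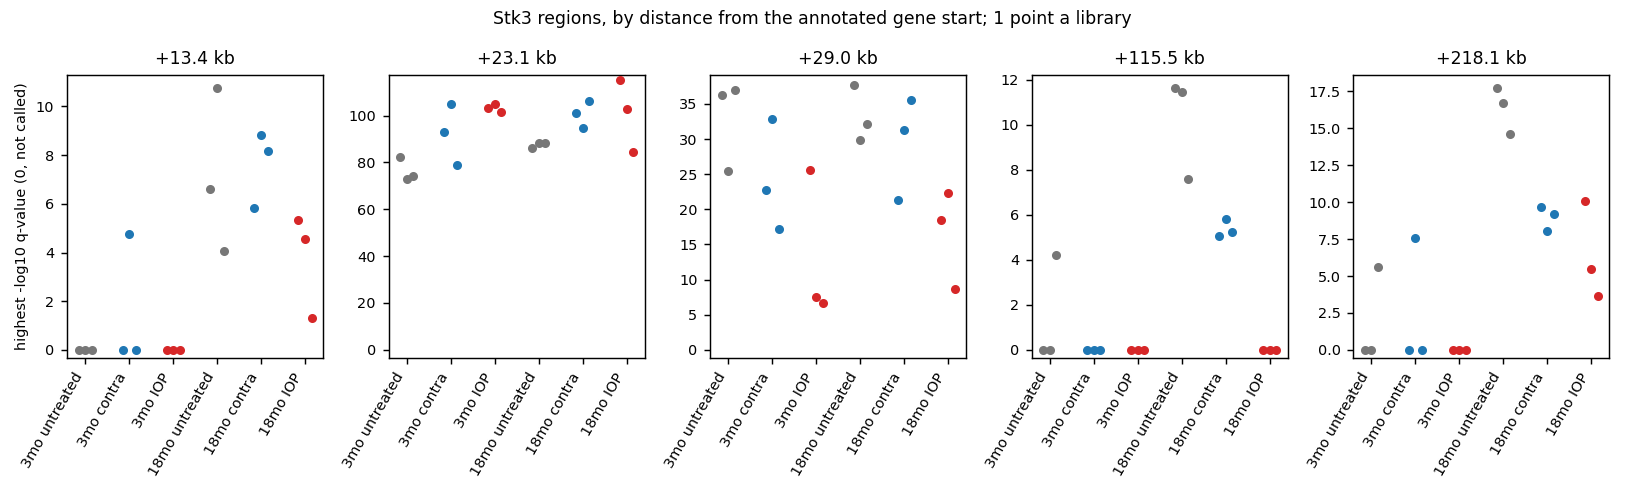
Highest −log10 q-value (y axis, 0 where not called; scales differ) of 5 Stk3 regions by group (x axis; 1 point a library), named by the distance from the annotated gene start. At 13.4, 116 and 218 kb the 18mo controls lie above 0 in all 6 libraries, while the promoter (23.1 kb) and the region at 29.0 kb were called in all 18.

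The effect of pressure was addressed with 3 IOP against 3 contralateral libraries at each age. At 3mo none of the 63 regions was called in all libraries of 1 arm and none of the other. Of 2 member regions called in 3 of the 6 libraries, 0 were split in this way, and genome-wide 2.91% of 5500 such regions were gained and 3.22% lost. At 18mo 2 member regions were lost after IOP and 0 gained, of 8 called in 3 of the 6 libraries. Genome-wide 26.4% of 6225 such regions were lost at 18mo and 2.83% gained, so the share among the members was near that of all regions. With 3 libraries against 3 the smallest p that an exact test can give is 0.1.

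The 2 lost regions were the Stk3 116 kb region described above and a Tead1 intron region at 187 kb (chr7:112865785-112866046). The Tead1 region had −log10 q-values of 5.75, 5.26 and 9.05 in the 18mo contralateral libraries and was called in 1 of 3 untreated libraries of that age. At 3mo it was called in untreated replicate 6 and contralateral replicate 3, and it was called in 0 of 6 IOP libraries over both ages (p = 0.05, exact test stratified by age, the smallest its calls allow). The lists of the 18mo IOP group were also shorter, at 44474 ± 7329 peaks against 56406 ± 4856 in the 18mo contralateral controls (SD, n = 3 each). With every list reduced to 36011 peaks, 1 member region was lost at 18mo in place of 2. Across both ages 6 member regions were testable and 0 passed at an unadjusted p under 0.05 (exact test stratified by age), against 5.04% of 5572 regions genome-wide.

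Peak counts per window did not pass for IOP in any member (exact permutation within age, two-sided; 0 of 10 at an unadjusted p under 0.05, against 1.19% of all genes). The widest differences were in Stk3, with 5.17 ± 1.72 peaks in IOP and 7.67 ± 3.88 in contralateral libraries (SD, n = 6 each; p = 0.095, exact permutation), and in Wwtr1, with 4.33 ± 1.86 and 2.67 ± 1.51 (p = 0.18, exact permutation, n = 6 each). In 3mo IOP replicate 1, 4 of the 6 Wwtr1 peaks lay within the promoter region. That region held 1 peak in each other 3mo IOP or contralateral list. At 18mo it held 2, 2 and 1 after IOP and 2 in each contralateral list.

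The 18 regions called throughout were also compared by their summit enrichment, the log2 of the fold of the pileup over the local background of the same library, quantile-normalised over 24751 regions and tested with limma. For age 0 of the 18 passed at an adjusted p of 0.05 (0.307% of all regions did) and 3 had an unadjusted p under 0.05, as did 12.6% of all regions. These were the Lats2 promoter, at −0.18 ± 0.07 (log2, 18mo minus 3mo, SE; adjusted p = 0.278), the Lats2 28.4 kb intron at 0.24 ± 0.11 (adjusted p = 0.363) and the Tead1 147 kb intron at −0.18 ± 0.08 (adjusted p = 0.39). The differences of all 18 lay between −0.18 and 0.24.

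For IOP at 3mo 0 of the 18 passed (0.00404% of all regions did) and 1, the Stk3 29.0 kb intron, had an unadjusted p under 0.05, as did 3.56% of all regions. It stood at −0.49 ± 0.19 (log2, IOP minus contralateral, SE; adjusted p = 1.0). There the normalised log2 values were 3.18, 2.42 and 2.46 in IOP and 3.27, 3.24 and 3.01 in contralateral libraries, and the groups overlapped. For IOP at 18mo 0 passed (0.121% of all regions did) and 4 had an unadjusted p under 0.05, each higher after IOP: the promoters of Wwtr1 (0.27 ± 0.12, adjusted p = 0.373), Amotl2 (0.26 ± 0.12, adjusted p = 0.388) and Lats2 (0.20 ± 0.10, adjusted p = 0.396), and the Tead1 147 kb intron (0.27 ± 0.12, adjusted p = 0.38). In the Wwtr1 promoter the normalised values were 3.09, 3.22 and 3.30 after IOP and 2.96, 2.84 and 2.99 in the contralateral eyes, without overlap. In the Amotl2 promoter they were 3.13, 3.17 and 3.27 against 2.93, 3.01 and 2.86, again without overlap. Before normalisation the Wwtr1 folds overlapped, at 8.44, 8.42 and 7.48 after IOP and 8.53, 6.54 and 8.91 in the contralateral eyes. The percentiles overlapped in all 4 regions. At the Lats2 promoter they ran lower after IOP, at 81.9, 81.9 and 77.9 against 85.2, 85.5 and 81.6. At an unadjusted p under 0.05, 12.6% of all 24751 regions differed in this comparison. The IOP effect differed between the ages in 0 of the 18, and in 0 of all regions, at an adjusted p of 0.05 (limma). At an unadjusted p under 0.05 it differed in 1 of the 18, the Tead1 147 kb intron (0.36 ± 0.17, adjusted p = 0.898), and in 4.59% of all regions.

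Untreated and contralateral controls, 6 libraries of each, differed more than the ages did. Summit enrichment differed in 5 of the 18 regions at an adjusted p of 0.05, and in 33.3% of all 24751 regions (limma). The Lats2 48.5 kb intron (chr14:57709769-57710333) was higher in untreated retinas by 0.75 ± 0.10 (log2, SE; adjusted p = 7.88e-05). In this Lats2 region the untreated values were 2.91, 2.62 and 2.74 at 3mo and 2.77, 2.75 and 2.60 at 18mo, and the contralateral values 1.91, 1.6 and 1.78 at 3mo and 1.99, 2.41 and 2.18 at 18mo, without overlap. The 3 Tead1 regions were also higher in untreated retinas, the 147 kb intron by 0.44 ± 0.08 (adjusted p = 0.00106), the internal start by 0.40 ± 0.09 (adjusted p = 0.00347) and the promoter by 0.20 ± 0.06 (adjusted p = 0.0275). The Yap1 promoter was lower in untreated retinas, at −0.43 ± 0.12 (adjusted p = 0.0119). Its values were 2.49, 2.40 and 2.11 at 3mo and 2.17, 2.52 and 2.27 at 18mo in untreated, and 3.08, 2.48 and 2.69 at 3mo and 2.65, 2.61 and 3.03 at 18mo in contralateral libraries. The untreated and contralateral ranges overlapped in Yap1 only through the contralateral value of 2.48 and the untreated values of 2.49 and 2.52. Before normalisation the Yap1 folds overlapped more, at 5.22 to 6.86 in untreated and 5.42 to 9.12 in contralateral libraries. The summits compared there were not at 1 position (SD 305 bp, n = 18). The widest Yap1 promoter peak was 116 to 327 bp in untreated and 547 to 1523 bp in contralateral libraries. In normalised values the IOP libraries, which were not part of this comparison, lay between 2.58 and 3.17 for Yap1 and between 1.75 and 2.47 for the Lats2 intron.

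**Figure D5:**
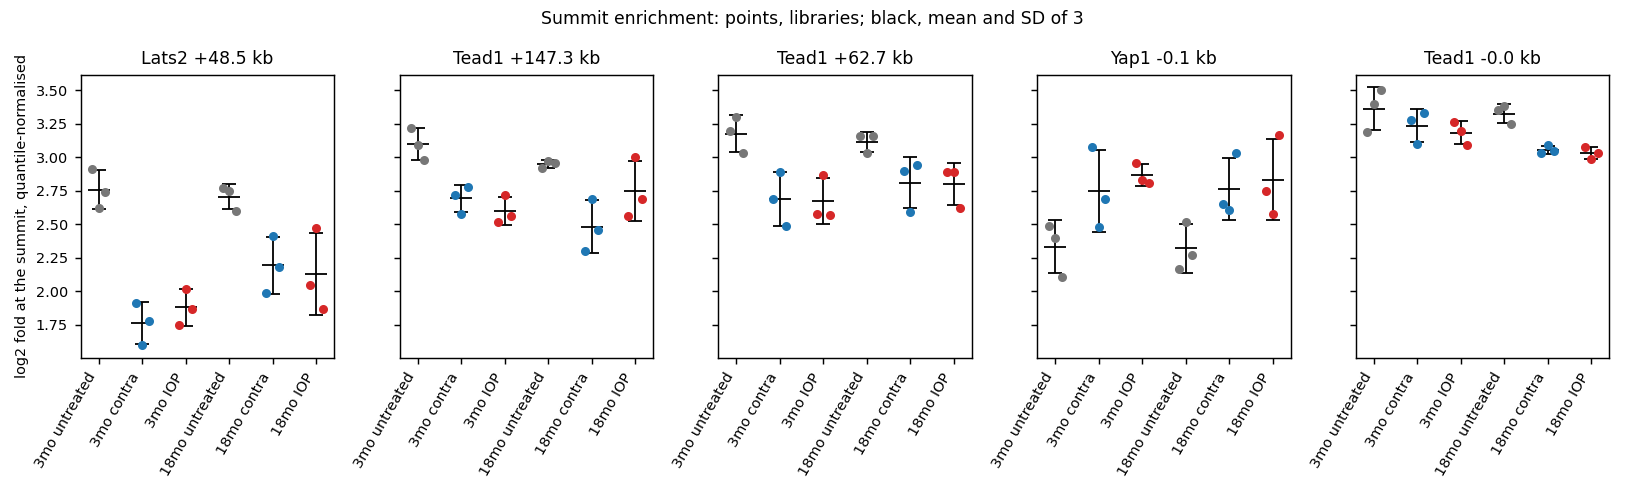
Summit enrichment (y axis, log2 fold over local background, quantile-normalised) in the 5 member regions that differed between untreated and contralateral controls, by group (x axis). Points are libraries, black the mean and SD of 3. Untreated libraries lie above all others in the Lats2 48.5 kb intron (2.60 to 2.91) and mostly below them in the Yap1 promoter.

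In calls, 1 of 10 testable member regions was called more often in untreated than in contralateral retinas at an unadjusted p under 0.05, against 581 of 9868 regions of the genome (5.89%). Of the 10, 0 were called less often, against 548 of the same 9868. The 1 region was a Lats1 intron region at 14.3 kb (chr10:7695422-7695551), called in 5 of 6 untreated, 0 of 6 contralateral and 0 of 6 IOP libraries (p = 0.0152, two-sided Fisher's exact test; adjusted p = 0.132). This Lats1 region is 130 bp wide, shorter than the shortest listed peak of 7 of the 12 contralateral and IOP libraries. With every list reduced to 36011 peaks its p was 0.455 (Fisher's exact test). The untreated libraries also had more peaks within the windows of Tead3 (4 to 6, against 2 to 3 in the other 12), Lats1 (4 to 5, against 1 to 3) and Amotl2 (4 to 6, against 2 to 4). These windows were chosen after their values were seen and were not tested. Some of these peaks lay side by side within 1 promoter region. The Tead3 promoter region held 2 to 4 peaks in untreated lists and 1 in each of the other 12. The Amotl2 promoter region held 3 to 4 against 1 to 2, and that of Lats1 1 to 2 against 1. Tead1 had means of 9.33 (3mo) and 8.0 (18mo) in untreated against 9.0 and 12.3 in contralateral libraries, and Tead4 2.67 and 1.0 against 3.33 and 2.0. Whether narrower peaks account for these counts was not tested.

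Among 25 other genes of the pathway, 19 had a promoter called in all 18 libraries and 6 in some. None of their windows passed for age or for IOP at an unadjusted p under 0.05, against 296 and 199 of 16722 genes. None of their 156 regions called in at least 2 libraries passed in the test of calls. Of all 73567 such regions 353 passed for age and 281 for IOP, so none passing in a list of this size says little. The most peaks were in Taok3 (a kinase upstream of the relay), with a median of 13.5 a library, and in Map4k4 (another such kinase), with 12, and the fewest in Taok1 and Vgll3, with 1 each. The paralogue of Stk3, Stk4 (MST1), chosen for mention after its values were seen, had 2 to 6 peaks a library and a difference of 0.333 between the ages (p = 0.805, exact permutation test). Of 16 known target genes of YAP and TEAD, Lats2 and Amotl2 included, 10 had a promoter called in all 18 libraries, 4 in some (Ccn1 in 14, Dock5 in 12, Myof in 7 and Axl in 2, named after their values were seen) and 2 in none (Ankrd1 and Foxf2). Ccn2, the target encoding connective tissue growth factor, had its promoter called throughout. None of the 16 windows passed for age or IOP, and none of their 65 regions in the test of calls, to which the same limit of list size applies. Peaks were most numerous at Myof and Arhgef17, with a median of 6 a library each, and were 0 in every library at Ankrd1.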

How the data were processed

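Chromatin accessibility was measured by ATAC-seq in 18 mouse retina libraries, for each of which the authors deposited MACS2 peaks (largest listed q-value 0.05). The submitters' processing notes also name STAR 2.7.8a, HOMER, edgeR, bedtools 2.29.2 and mm10. Read filters and any transposase shift are not given in the sources used here. The deposited fold is a ratio of the summit's pileup to its local background. The deposited −log10 q-value refers to the summit as well. Read counts per region were not analysed here. The shared label text also describes crosslinking and precipitation, whereas the paper's methods describe tagmentation. Day 2 was taken from the labels, since the paper's text gives another day.

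Peaks overlapping by at least 1 bp were merged, and regions found in 2 or more libraries were tested where the smallest possible p was under 0.05. Promoter regions held an annotated start or had their median summit within 1 kb upstream to 100 bp downstream. Calls were compared by Fisher's exact test (age, kind of control) or an exact test stratified by age (IOP), and peaks per window by exact permutation over all protein-coding genes, with Benjamini-Hochberg adjustment. Summit log2 fold was quantile-normalised and fitted with limma 3.58.1 (R 4.3.3) with a mean per group. Other steps used Python 3.11.15, and the tests were tested on simulated data. Motifs were searched on both strands (CATTCC of TEAD, TGANTCA of AP-1, TAATCC of Crx and Otx2, TAATTA of homeodomain factors). Sequences are from RefSeq's GRCm38.p6. The sequence of 1 matching promoter is not reported here.

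Members, gene lists and tests were chosen with earlier results of these data known. Named were the members, the listed genes with the most and the fewest peaks, promoters, the strongest constant distal regions, regions exclusive to an arm or with an unadjusted p under 0.05, and regions past or nearest to the limma threshold. Further regions are named for their place in a gene's account. Groups and replicate numbers came from the labels (the untreated files are named with other numbers), which do not state that libraries of a group are separate animals, so p-values measure the spread between libraries.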

Additional observations from a re-analysis of the deposited data

How the results depend on the processing

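For the 21 single-gene and single-region results that were recomputed, no alternative turned the direction, and 303 alternative values stayed on their side of the threshold while 11 did not. The percentile in place of the fold is not in this count. In percentiles the direction was not always kept. At the Amotl2 promoter at 18mo they ran slightly lower after IOP (87.8, 90.1 and 84.1, against 89.4, 87.9 and 86.4 in contralateral libraries). The Stk3 window difference by age passed under all 17 alternatives (p from 0.00216 to 0.013, exact permutation). These include leaving out the longest lists, a choice made after seeing the data. Those lists held the highest 3mo counts at Stk3, so leaving them out could only widen the difference and is no check of it. They also held every 3mo call of the Stk3 intron regions that passed for age, so the same applies to those regions. Beside the values given above, the Stk3 13.4 kb region fell to a difference of 16.7 percentage points (p = 1.0, Fisher's exact test) when a peak had to cover 50% of the region. Only 18mo contralateral replicate 2, with a peak of 973 bp, covered that much of it. The Tead1 promoter lost its call between kinds of control in 7 of 16 alternatives (adjusted p up to 0.0666, limma).

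Numbers of member regions or genes that passed moved as follows, and the cause was not tested except where given. With the 2 longest lists left out (chosen after seeing the data), 6 regions passed for age and 2 for kind of control, and 2 windows passed for age, with fewer libraries compared and with every 3mo call of the Stk3 13.4 and 116 kb regions removed. With equal numbers of peaks, 2 regions passed for kind of control, 1 was exclusive at 3mo and 1 at 18mo. With 50% cover 3 passed for kind of control, 1 was exclusive at 3mo and 1 at 18mo. Scaled to 10000 peaks, 1 window passed for IOP. With the percentile in place of the fold, 2 regions passed for kind of control. Leaving out 1 library gave 2 to 3 regions for age, 0 to 2 for IOP across ages (2 without 3mo contralateral control replicate 1), 1 to 3 for kind of control (3 without 3mo untreated replicate 5 or 18mo contralateral control replicate 2), 0 to 4 exclusive at 3mo (4 without contralateral control replicate 2), 2 to 5 at 18mo (5 without contralateral control replicate 2, 4 without IOP replicate 2), 1 window for age, 0 to 1 for IOP (1 without 18mo IOP replicate 3), and 0 (age, IOP at 3mo, IOP at 18mo, their difference) and 4 to 6 (kind of control) in summit enrichment.

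Same-numbered IOP and contralateral libraries did not deviate together (correlations −0.312, −0.239 and 0.199 at 3mo, 0.356, 0.212 and −0.155 at 18mo), so the numbers were not taken as pairs. With the replicate block 0 member regions passed for IOP across ages, 0 windows passed, and 0 regions passed in summit enrichment at 3mo, 18mo or between ages. For exclusive regions the block gives by construction the counts without it, 0 at 3mo and 2 at 18mo.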

Other observations

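Of the other motifs searched, AP-1 (TGANTCA) was present in 4 of the 63 member regions (6.35%, against 6.61% of all regions called in at least 2 libraries), in introns of Yap1, Wwtr1, Tead1 and Lats2. The homeodomain core TAATTA was present in 3 (4.76%, against 4.13%). None of the 10 promoter regions of the set held AP-1, TAATCC or TAATTA. The Lats2 28.4 kb intron, called in all 18 libraries, was the only region with both AP-1 and TAATCC in its 200 bp. A Lats1 region at −7.34 kb lies within the neighbouring genes Pcmt1 and Nup43 and was called in 6 of 6 untreated, 3 of 6 contralateral and 2 of 6 IOP libraries (p = 0.182 for kind of control, two-sided Fisher's exact test), with −log10 q-values of 3.72 to 25.57 where called. A Lats2 intron region at 62.6 kb was called in 3 of 3 untreated libraries at 18mo, in 1 of 3 at 3mo and in none of the other 12.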
